A study of Mus musculus with 6 samples.

Results

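ERBB receptors and their ligands form one of the main growth factor systems of the developing lung, and 9 of their genes were followed here through histone acetylation in lung mesothelium and lung epithelium. They were chosen by name, as the 4 receptor genes Egfr, Erbb2, Erbb3 and Erbb4 and the 5 ligand genes Nrg1, Areg, Ereg, Hbegf and Tgfa, out of 21887 protein-coding genes. For each gene, peaks of H3K27ac, a histone mark found at active regulatory DNA, were measured in the gene body and up to 50 kb on each side, cut midway to the next coding gene. This stretch is called the gene's domain.

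Cells came from mouse lungs at E16.5, which were pooled before sorting. The 2 mesothelium libraries (25k and 100k cells in the labels) held cells positive for podoplanin and negative for EPCAM, CD45, CD31 and DAPI, and the 2 epithelium libraries (100k and 200k) held cells positive for both podoplanin and EPCAM and without CD45, CD31 or DAPI staining. The embryos of all groups came from matings of Myrf Fl/Fl mice, with no Cre named in the labels, and the series text has the word wildtype for the mesothelial cells. The series concerns MYRF, a transcription factor, in lung mesothelium. Another 2 libraries made from epithelial cells with IgG, a non-specific antibody, were not analysed here. Nothing in the labels ties replicates to separate pools of lungs, so each p-value reflects library-to-library spread, which may be technical.

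ERBB receptors are receptor tyrosine kinases that signal as dimers. EGFR binds amphiregulin (Areg), epiregulin (Ereg), HB-EGF (Hbegf) and TGF-alpha (Tgfa), and neuregulin 1 (Nrg1) binds ERBB3 and ERBB4. These pairs are not a full list of which ligand binds which receptor. ERBB2 has no known ligand of its own and ERBB3 has little kinase activity, so both act with partners. In the lung, EGFR is known for its part in epithelial growth and maturation, and neuregulin with ERBB4 for the maturation of surfactant-producing alveolar cells.

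The lists held 39006 and 41524 peaks in mesothelium and 47869 and 46632 in epithelium, and they covered 35.7 and 39.8 Mb in mesothelium and 44.4 and 41.4 Mb in epithelium. Depth in reads is unknown, because peak lists carry no read counts. Of 10 mesothelial markers, 8 of them tested, 6 had longer domains in mesothelium, and of 10 epithelial markers, 7 had longer domains in epithelium (limma, adjusted p under 0.05). Among those called, Bnc1, Gpm6a, Upk1b and Muc16 reached the 0.5 kb average needed for testing only through mesothelium, and Cldn18 only through epithelium. The direction of these markers was therefore fixed by the filter. The mesothelial markers summed to 30.6 and 66.1 kb in mesothelium replicates 1 and 2, against 3.60 and 6.84 kb in epithelium. The epithelial markers summed to 27.9 and 6.30 kb in mesothelium replicates 1 and 2, against 157 and 166 kb in epithelium, with 2, 3, 1 and 0 of the 10 without a peak in these libraries. Endothelial markers summed to 15.2 and 11.2 kb in mesothelium against 2.68 and 4.19 kb in epithelium, and mesenchymal markers to 11.5 and 16.8 kb against 2.38 and 2.45 kb. Msln ran opposite to its label, with 0.544 and 0.893 kb in mesothelium against 1.19 and 4.29 kb in epithelium (limma adjusted p = 0.438). Upk3b had 0.835 kb in mesothelium replicate 2 and no peak in the other 3 libraries. Pdpn, which encodes the podoplanin used in both sorts, had 0.364 kb and none in mesothelium against 10.4 and 8.97 kb in epithelium. Sftpc had 0.299 kb in epithelium replicate 2 and no peak elsewhere. Blood markers reached at most 0.359 kb in mesothelium and 1.74 kb in epithelium. The share of cells that carry acetylation at a site and the amount per cell cannot be told apart in such bulk libraries.

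The listed start sites of ERBB genes were bare of peaks. RefSeq (GRCm38.p6, the assembly that mm10 names) lists a start site for 5 of the 9 genes, Egfr, Erbb2, Erbb4, Areg and Tgfa, and none of them had a peak within 1 kb in any library. Among the 17492 coding genes with a listed start site, 53.3% had no such peak either. The 250 bases before the start are shown for the 3 of these genes with the most acetylation in their domains and for Erbb2, which had the least, 5′ to 3′, with matches to the motifs searched in capitals.
Egfr (chr11:16751953-16752202, + strand): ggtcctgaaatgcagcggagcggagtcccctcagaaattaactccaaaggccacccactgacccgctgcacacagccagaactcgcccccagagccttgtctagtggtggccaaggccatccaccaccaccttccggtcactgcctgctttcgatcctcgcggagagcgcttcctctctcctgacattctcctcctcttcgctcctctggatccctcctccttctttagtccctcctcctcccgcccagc
Erbb4 (chr1:69108060-69108309, - strand): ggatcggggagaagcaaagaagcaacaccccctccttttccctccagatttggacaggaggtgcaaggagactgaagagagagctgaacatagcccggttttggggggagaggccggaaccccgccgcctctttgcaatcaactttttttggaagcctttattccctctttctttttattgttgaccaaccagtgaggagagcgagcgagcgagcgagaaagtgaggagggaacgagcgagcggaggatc
Tgfa (chr6:86194972-86195221, + strand): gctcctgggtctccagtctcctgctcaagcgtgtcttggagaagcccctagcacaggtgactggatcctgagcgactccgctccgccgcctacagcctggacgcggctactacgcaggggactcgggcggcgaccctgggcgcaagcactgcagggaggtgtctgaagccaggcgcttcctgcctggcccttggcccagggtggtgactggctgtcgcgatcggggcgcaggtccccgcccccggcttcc
Erbb2 (chr11:98412234-98412483, + strand): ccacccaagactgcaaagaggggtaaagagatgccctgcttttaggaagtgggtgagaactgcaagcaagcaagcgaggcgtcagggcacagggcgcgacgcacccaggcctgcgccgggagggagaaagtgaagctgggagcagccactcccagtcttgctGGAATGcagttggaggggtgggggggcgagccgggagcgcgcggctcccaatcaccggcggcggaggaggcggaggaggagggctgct
Letters searched on both strands were CTGGNAC (MYRF), TGTTTAC (forkhead), GGAATG (TEAD), TGANTCA (AP-1), CACTTG (NK2 homeobox, also an E-box) and TATAAA. Among 21263 coding-gene windows of the same length, CTGGNAC was in 15.9%, TGTTTAC in 2.62%, TGANTCA in 6.13% and CACTTG in 11.2%. The Egfr, Erbb4 and Tgfa windows held none of the 6. The Erbb2 window held GGAATG once, starting 88 bases before the start, as did 11.7% of those windows. The Areg window (chr5:91139349-91139598, + strand) held TATAAA once, starting 31 bases before the start, as did 11.6% of windows. The windows of Egfr, Erbb2, Erbb4, Areg and Tgfa had 60.8%, 66%, 54%, 57.2% and 69.2% G and C, against a median of 55.6%.

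The nearest peak to the Egfr start lay 32.1 and 13.9 kb away in mesothelium and 12.7 and 12.7 kb away in epithelium. For Tgfa it lay 24.3 and 123.9 kb away in mesothelium and 14.2 and 13.6 kb away in epithelium. For Erbb4 it lay 26.8 and 142.8 kb away in mesothelium and 47.2 and 17.5 kb away in epithelium. What acetylation these 3 genes carried was therefore away from their listed starts. Erbb3, Nrg1, Ereg and Hbegf were examined at both gene ends instead. Of all 9 genes, Erbb3 alone had such peaks in both epithelium libraries (1 of 9, against 16.7% of coding genes) or in both mesothelium libraries (1 of 9, against 20.4%). In mesothelium replicate 2 that peak lay 0.909 kb beyond the low-coordinate end, over the end of Pa2g4 and outside the Erbb3 domain. The Erbb3 domain itself had no peak in that library.

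Acetylated length, the kilobases under peaks in a domain, was highest at Erbb4 and lowest at Erbb2, Areg and Ereg on average over the 4 libraries, while in mesothelium replicate 1 Nrg1 and Erbb4 were level at 6.16 and 6.15 kb. No member was called in the comparison of mesothelium with epithelium: 0 of the 6 tested were longer in mesothelium (1.41% of 10481 tested domains were) and 0 were longer in epithelium (2.53%; 3.94% in either direction). These calls come from limma on log2(kb + 0.5), with Benjamini-Hochberg adjustment over all domains of at least 0.5 kb on average. Differences are given as mesothelium minus epithelium on that scale, which understates differences of short domains. At an unadjusted p under 0.05, none was longer in mesothelium, against 8.19% of all tested domains, and 3 (Erbb3, Erbb4 and Tgfa) were longer in epithelium, against 9.58% of all tested domains in that direction and 17.8% in either. Erbb3 reached the 0.5 kb average only through epithelium, which fixed its direction, so nothing is read from this count of 3.

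**Figure D1:**
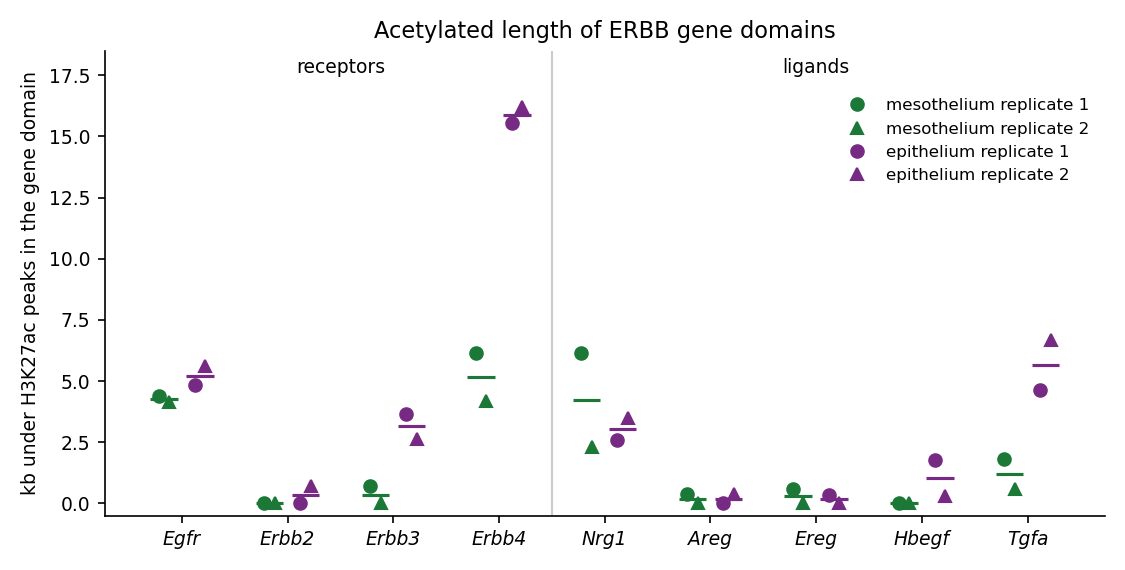
Kilobases under H3K27ac peaks (vertical axis) in the domain of each ERBB gene, with 1 point per library and a line at the mean of the 2 libraries of a cell type. Erbb4 reached 15.5 and 16.2 kb in epithelium, while Erbb2, Areg and Ereg stayed under 1 kb in each of the 4 libraries.

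Among the receptors, Erbb4, the neuregulin receptor of the alveolar epithelium, had the smallest p. Erbb4 (gene ID 13869, chr1:68031884-69108576 in mm10) had 6.15 and 4.20 kb under peaks in mesothelium, against 15.5 and 16.2 kb in epithelium. Both epithelium libraries were above both mesothelium libraries, and the gap was wider than the spread within either. The means were 5.17 ± 1.38 kb for mesothelium against 15.9 ± 0.462 kb for epithelium (SD, n = 2 each). The log2 difference was −1.49 (SE 0.44, 95% interval −2.40 to −0.58), and it narrowly missed the threshold (limma, adjusted p = 0.059). It was called without mesothelium replicate 1 (adjusted p = 0.0064, limma), when the lone mesothelium library is assumed to vary like the epithelium pair. Over all 17 alternatives the limma adjusted p ran between 0.0064 and 0.954.

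Erbb4 acetylation was thin and scattered along a domain of 1177 kb. It consisted of 13 and 7 peaks in mesothelium and 24 and 24 in epithelium, which merged into 62 regions. Of these, 58 were present in 1 library, 16 of them in mesothelium and 42 in epithelium. Peaks covered 0.523% and 0.357% of the domain in mesothelium and 1.32% and 1.38% in epithelium. Over the 307 domains of at least 500 kb, the median was 0.452% and 0.523% in mesothelium, against 0.673% and 0.562% in epithelium, and the upper quartile was 0.933% and 1.11% against 1.505% and 1.26%. Over the bases of all domains together, 1.88% and 2.10% were covered in mesothelium and 2.25% and 2.11% in epithelium. Erbb4 in epithelium lay between the median and the upper quartile of long domains in replicate 1, above the upper quartile in replicate 2, and under the share of all domain bases in both.

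The part of Erbb4 that epithelium libraries had in common was small. Bases under peaks in both epithelium libraries came to 1.85 kb, and no base was under peaks in both mesothelium libraries. Most of the shared bases lay in a region of 2.10 kb (chr1:69058859-69060955), 47.1 kb inside the gene from its start. Its peaks spanned 0.349 kb in mesothelium replicate 1, none in mesothelium replicate 2, and 1.97 and 1.84 kb in epithelium. With only regions present in at least 2 libraries, a choice made after seeing the data, Erbb4 carried 1.11 and 1.59 kb in mesothelium, against 3.04 and 2.61 kb in epithelium (log2 difference −0.86, limma adjusted p = 0.398). With peaks below a −log10 q of 2 left out, it carried 2.72 and 1.51 kb in mesothelium, against 1.89 and 1.61 kb in epithelium (log2 difference −0.12, limma adjusted p = 0.954). That threshold was unequal between the lists, since 31.5% and 53.1% of all peaks reached it in mesothelium and 24.2% and 24.1% in epithelium. With equal numbers of peaks per library, Erbb4 had 6.15 and 3.69 kb in mesothelium, against 13.7 and 14.6 kb in epithelium (log2 difference −1.52, limma adjusted p = 0.082).

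**Figure D2:**
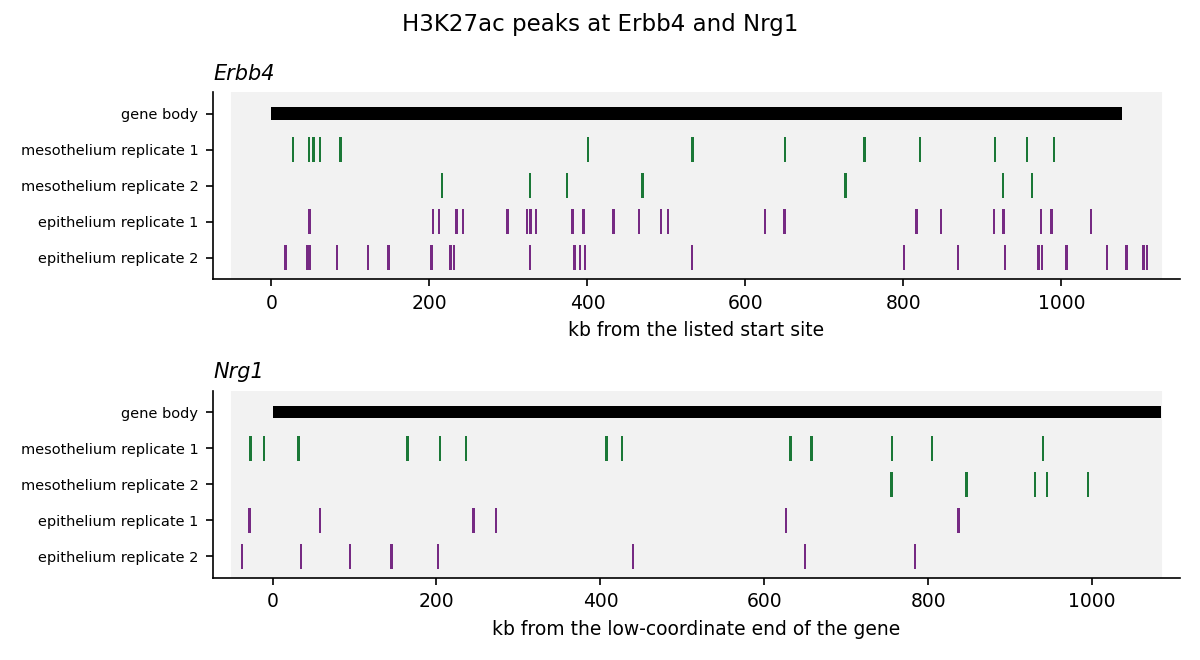
Peaks of each library along Erbb4 and Nrg1, in kb from the listed start site (Erbb4) or from the gene end with the lower coordinate (Nrg1); the shaded span is the domain, the black bar the gene body, and narrow peaks are drawn at a minimum width. Erbb4 had 24 peaks in each epithelium library against 13 and 7 in the mesothelium libraries, with few positions in common.

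Erbb3, which encodes the kinase-poor partner of ERBB2, had its recurring epithelial acetylation at 1 gene end. Erbb3 (gene ID 13867, chr10:128567523-128589635) carried 0.699 kb and no peak in mesothelium replicates 1 and 2, against 3.67 and 2.65 kb in epithelium. Per length this was 1.73% and 0% of the domain in mesothelium and 9.09% and 6.57% in epithelium, the highest epithelial shares among the 9 genes. The libraries did not overlap, but the difference was not called (log2 difference −2.17, SE 0.76, 95% interval −3.75 to −0.58, limma adjusted p = 0.123).

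A region of 3.67 kb (chr10:128587940-128591608) spanned the high-coordinate end of Erbb3 and had a peak in 3 libraries. The peak was 3.67 and 1.11 kb wide in epithelium, with a deposited fold enrichment over background of 3.59 and 4.76 and a −log10 q of 1.68 and 3.19. In mesothelium replicate 1 a peak of 0.403 kb (fold 3.82, −log10 q 1.93) lay 13 bases beyond the gene end, and replicate 2 had none there. The other side of Erbb3 showed the opposite order. Over the end of Pa2g4 that faces Erbb3, 1.59 kb away, peaks were 1.44 and 2.48 kb wide in mesothelium and 0.331 kb wide in epithelium replicate 1, with none in replicate 2. They lay mostly in the domain of Pa2g4, which encodes a protein first isolated as an ERBB3-binding partner. With 50 kb flanks that were not cut at neighbours, Erbb3 carried 3.23 and 4.92 kb in mesothelium, against 5.91 and 2.65 kb in epithelium (log2 difference −0.03, limma adjusted p = 0.988). With peaks below a −log10 q of 2 left out, the Erbb3 domain kept 2.26 kb in epithelium replicate 2 and nothing in the other 3 libraries.

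Egfr, the receptor of 4 of the 5 ligands, was not separated between the cell types beyond its error. Egfr (gene ID 13649, chr11:16752203-16913907) had 4.38 and 4.13 kb in mesothelium, against 4.83 and 5.60 kb in epithelium. The epithelium values were the higher ones without overlap, but the gap was small beside its error (log2 difference −0.20, SE 0.54, 95% interval −1.32 to 0.91, limma adjusted p = 0.894). The interval leaves room for a difference of about 1 on the log2 scale in either direction. With only regions present in at least 2 libraries, Egfr had 1.56 and 1.41 kb in mesothelium, against 4.39 and 4.50 kb in epithelium (log2 difference −1.33, limma adjusted p = 0.183). Peaks covered 1.90% and 1.79% of the domain in mesothelium and 2.09% and 2.43% in epithelium.

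Egfr held the single ERBB region with a peak in all 4 libraries. It was 4.31 kb wide (chr11:16783303-16787612), 31.1 kb inside the gene from its start. Its peaks summed to 1.56 and 0.776 kb in mesothelium, against 1.27 and 2.70 kb in epithelium. Their highest −log10 q values were 1.99 and 3.805 in mesothelium against 2.46 and 2.15 in epithelium. A second region of 2.59 kb (chr11:16899403-16901990), near the far end of the gene, had peaks of 0.629 kb in mesothelium replicate 2 and of 2.502 and 1.49 kb in epithelium. Another of 0.614 kb (chr11:16738911-16739524), 12.7 kb before the start, had peaks in both epithelium libraries and in neither mesothelium library. The annotation used gives no exons, so whether a region is exonic or intronic was not analysed here.

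Erbb2, the partner receptor without a ligand, was nearly free of peaks. Erbb2 (gene ID 13866, chr11:98412484-98437716) had no peak in either mesothelium library or in epithelium replicate 1, and 0.722 kb in epithelium replicate 2, from 2 peaks. It did not reach the length filter and was not tested. Its domain is short, since Mien1 overlaps its far end and Pgap3 lies 11.3 kb before its start. With 50 kb flanks not cut at these neighbours, the stretch carried 0.355 and 0.551 kb in mesothelium, against 2.99 and 6.15 kb in epithelium, including peaks in the domains of Pgap3, Mien1 and Grb7.

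**Figure D3:**
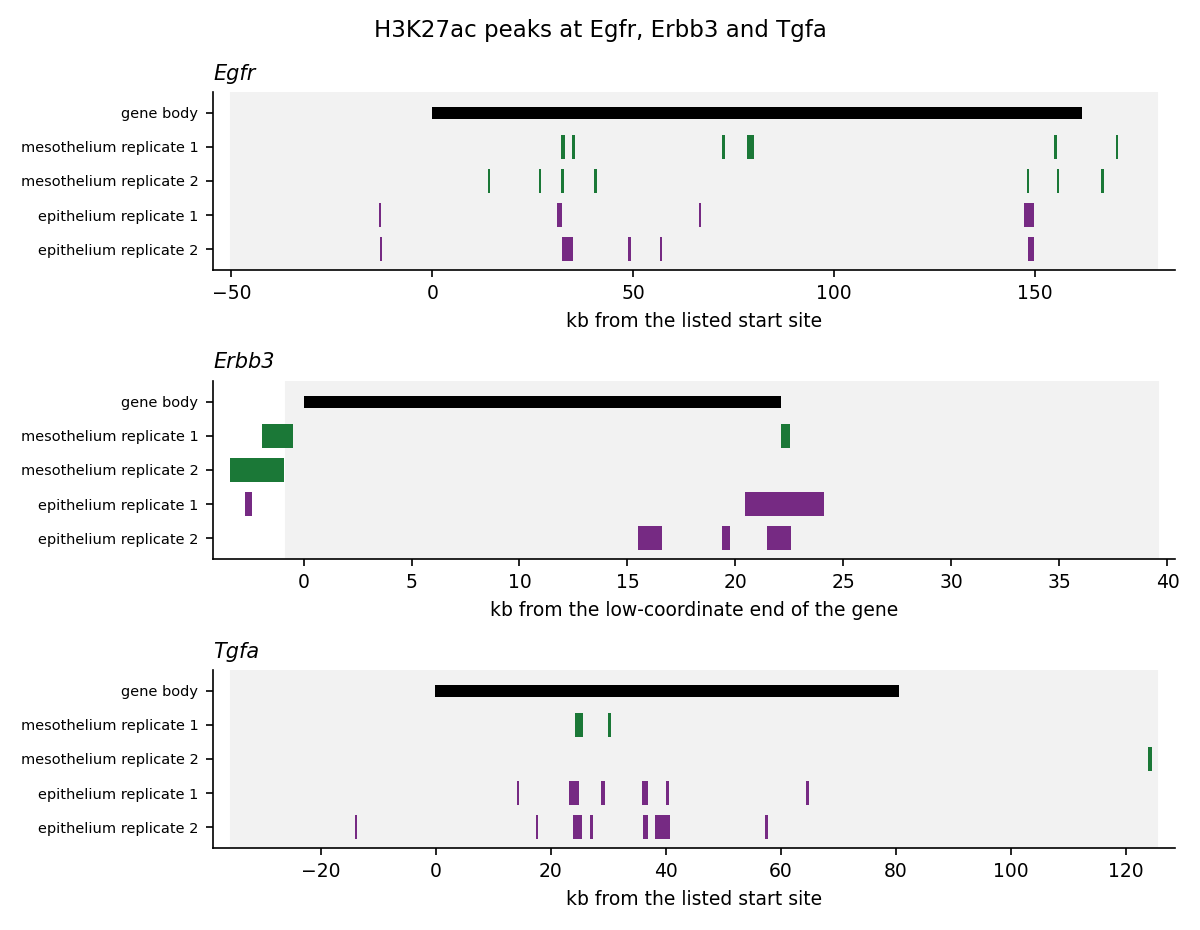
Peaks of each library at Egfr, Erbb3 and Tgfa, in kb from the listed start site (Egfr, Tgfa) or from the gene end with the lower coordinate (Erbb3); the shaded span is the domain, the black bar the gene body, and narrow peaks are drawn at a minimum width. Egfr has a region about 31.1 kb inside the gene in all 4 libraries, and Tgfa has 3 regions inside the gene with peaks in both epithelium libraries.

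Among the ligands, Tgfa, which encodes a membrane-anchored EGFR ligand, carried the most acetylation in epithelium. Tgfa (gene ID 21802, chr6:86195038-86275744) had 1.81 and 0.600 kb in mesothelium, against 4.66 and 6.68 kb in epithelium. Both epithelium libraries were above both mesothelium libraries, with means of 1.20 ± 0.852 kb for mesothelium against 5.67 ± 1.43 kb for epithelium (SD, n = 2 each). The difference was not called (log2 difference −1.87, SE 0.66, 95% interval −3.23 to −0.51, limma adjusted p = 0.120). Without mesothelium replicate 1 the log2 difference was −2.46, in a fit where the lone mesothelium library is assumed to vary like the epithelium pair. Over the alternatives the limma adjusted p ran between 0.036 and 0.433, and the difference between −2.46 and −1.24.

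The epithelial acetylation of Tgfa recurred in part. Of its 10 regions with an epithelium peak, 3 had one in both epithelium libraries and 7 in 1. Bases under peaks in both epithelium libraries came to 2.37 kb, the most among the 9 genes, and none were under peaks in both mesothelium libraries. A region of 2.33 kb (chr6:86218438-86220763), 23.2 kb inside the gene from its start, had peaks of 1.24 kb and none in mesothelium replicates 1 and 2, and of 1.76 and 1.49 kb in epithelium. Another 2 regions, of 1.15 kb (chr6:86231056-86232200) and 2.55 kb (chr6:86233403-86235954), had peaks in both epithelium libraries and in neither mesothelium library. The −log10 q of the Tgfa peaks in these 3 regions was between 1.51 and 2.78 in epithelium. With only regions present in at least 2 libraries, Tgfa had 1.24 kb and none in mesothelium, against 3.29 and 4.97 kb in epithelium (log2 difference −2.29, limma adjusted p = 0.165).

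Mesothelium replicate 1 was the higher mesothelium library at each member with any mesothelial peak. At Egfr the values were close, 4.38 against 4.13 kb, and at Areg and Ereg replicate 1 had only 1 peak each. The share of all domains with this order was not computed, so nothing is read from it. Replicate 1 also had more acetylation at epithelial markers, 27.9 kb against 6.30 kb in replicate 2. At mesothelial markers it was the lower one, with 30.6 kb against 66.1 kb in replicate 2. The part of epithelial cells, or of the lower cell number of that library, in these values was not tested.

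Nrg1, the neuregulin gene, did not separate the cell types. Nrg1 (gene ID 211323, chr8:31807452-32891609) had 6.16 and 2.32 kb in mesothelium, against 2.61 and 3.499 kb in epithelium. The mesothelium values lay on both sides of the epithelium values (log2 difference 0.36, SE 0.62, 95% interval −0.94 to 1.65, limma adjusted p = 0.829). All 32 Nrg1 regions were present in 1 library each, and peaks covered 0.543% and 0.204% of the domain in mesothelium and 0.230% and 0.309% in epithelium, above the median of long domains in mesothelium replicate 1 and below it in the other 3 libraries. Without mesothelium replicate 1 the difference turned to −0.32 (limma adjusted p = 0.870). With equal numbers of peaks per library, Nrg1 kept 6.16 and 2.32 kb in mesothelium, against 0.474 and 0.742 kb in epithelium (log2 difference 1.92, limma adjusted p = 0.168).

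Hbegf, which encodes an EGFR ligand that also binds heparin, had no peak in either mesothelium library and 1.78 and 0.318 kb in epithelium. It passed the length filter through its epithelium length alone, and the difference was not called (log2 difference −1.39, SE 0.94, 95% interval −3.34 to 0.56, limma adjusted p = 0.466). None of its 3 regions recurred between libraries. Areg and Ereg, neighbours in a cluster of EGFR ligand genes on chromosome 5, were not tested for lack of length. Areg had 0.401 kb and none in mesothelium, against none and 0.383 kb in epithelium. Ereg had 0.595 kb and none in mesothelium and 0.339 kb and none in epithelium. None of these 4 peaks lay in a gene body, and none recurred between libraries. Of the other 2 genes of the cluster, Epgn, which encodes epigen, had 1.04 kb and none in mesothelium and no peak in epithelium. Btc, which encodes betacellulin, had peaks in all 4 libraries, with 1.48 and 1.73 kb in mesothelium, against 0.594 and 1.04 kb in epithelium (log2 difference 0.76, limma adjusted p = 0.641).

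Across the family, the acetylated lengths of 5 of the 6 tested genes did not overlap between cell types, while those of the 3 untested genes did; all 5 were higher in epithelium (Egfr, Erbb3, Erbb4, Hbegf and Tgfa). Among all tested domains, 25.5% did not overlap with epithelium higher and 22.4% with mesothelium higher. The median log2 difference of the 6 tested members was −1.44, against 0.03 over all tested domains. The 3 members left out had little or no acetylation in either cell type. Hbegf and Erbb3, with mesothelium means of 0 and 0.3495 kb, passed the length filter only through epithelium, which had to give them a negative difference, so nothing is read from this median or from the count of 5. By mean length over the 4 libraries the order was Erbb4, Egfr, Nrg1, Tgfa, Erbb3 and Hbegf, with Ereg, Areg and Erbb2 last. Egfr, Nrg1 and Tgfa, neighbours in that order, overlapped in the ranges of their 4 libraries. As a share of the domain in epithelium, Erbb3 came first in both libraries, and Erbb4 lay below Egfr in both.

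**Figure D4:**
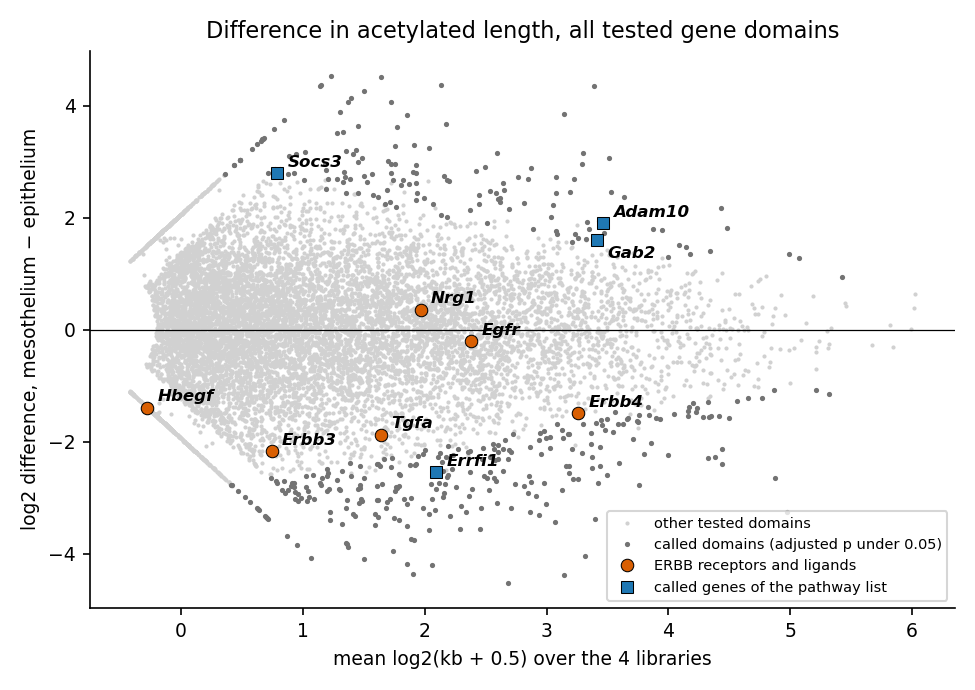
Difference in acetylated length, mesothelium minus epithelium on the log2(kb + 0.5) scale (vertical axis), against the mean log2(kb + 0.5) over the 4 libraries (horizontal axis) for 10481 tested domains. The 6 tested ERBB genes (orange) lie among domains that were not called, and 4 other pathway genes (blue squares) are among the called ones.

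Most ERBB regions were seen in a single library. The peaks of the 4 libraries merged into 134 regions over the 9 domains, 116 of them in gene bodies. Of the 134, 122 (91.0%) had a peak in 1 library, against 80.8% of all 132212 regions. Regions with a peak in both epithelium libraries and no mesothelium library numbered 3 (2.24%), 1 at Egfr and 2 at Tgfa, against 3.31% of all regions. None had the opposite pattern, which 2.60% of all regions had. Bases under peaks in both libraries of a cell type made up 2.22% of the bases under peaks in either for mesothelium and 11.6% for epithelium, against 13.2% and 14.0% over all peaks. The highest −log10 q of any ERBB peak was 4.00, at Erbb4 in epithelium replicate 2.

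**Figure D5:**
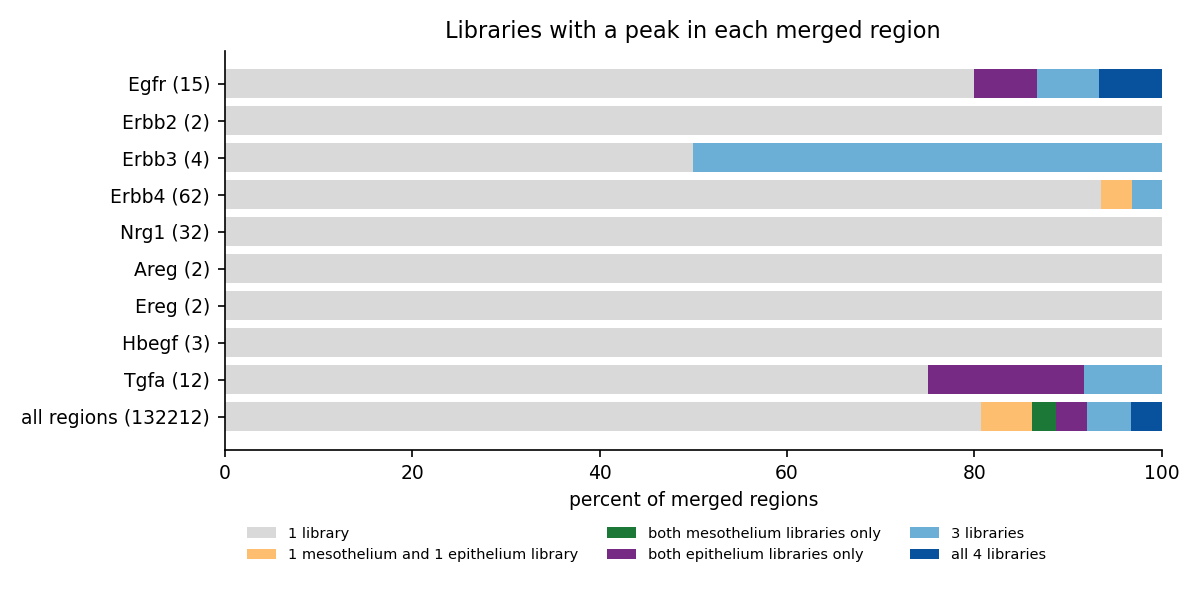
Percent of merged regions (horizontal axis) by the libraries that have a peak in them, for each ERBB gene and for all regions, with the number of regions in brackets. Regions of 1 library (grey) dominate; Egfr holds the single region present in all 4 libraries, and regions of both epithelium libraries only are found at Egfr and Tgfa.

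Other genes of the pathway were called in both directions. Of 50 further genes (other ligands, ligand release, adaptors and brakes, effectors), 42 were tested, 3 were longer in mesothelium and 1 was longer in epithelium (limma), against 1.41% and 2.53% of all tested domains. At an unadjusted p under 0.05 these numbers were 11 and 3, against 8.19% and 9.58% of all tested domains. Some of the genes longer in mesothelium, Socs3 among them, passed the length filter only through mesothelium, so nothing is read from these counts. The median log2 difference of the tested pathway genes was 0.37, against 0.03 over all tested domains. It includes the genes that passed only through mesothelium, so nothing is read from it either. Adam10, which encodes a protease that sheds ERBB ligands from the cell surface, had 20.2 and 20.4 kb in mesothelium, against 5.70 and 4.97 kb in epithelium (log2 difference 1.90, SE 0.41, limma adjusted p = 0.0088). It was the only one of the 4 called with any 1 library left out (limma adjusted p between 0.0049 and 0.038), and it was called in 14 of all 17 alternatives (up to 0.248). In Adam10, 8 of 30 regions had a peak in both mesothelium libraries and no epithelium library, against 2.60% of all regions. These regions come from the same peaks as the call and are no separate evidence for it. Adam17, the other main sheddase, had 6.68 and 3.81 kb in mesothelium, against 4.16 and 7.62 kb in epithelium and was not called (limma adjusted p = 0.965).

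Errfi1, which encodes MIG6, a feedback inhibitor of ERBB kinases, was the 1 pathway gene longer in epithelium. It had 0.933 and 1.59 kb in mesothelium, against 9.93 and 10.1 kb in epithelium (log2 difference −2.54, SE 0.57, limma adjusted p = 0.012). Bases under peaks in both libraries came to none in mesothelium and 4.99 kb in epithelium. Its limma adjusted p reached 0.143 over 16 alternatives, 10 of which called it. The call was lost without epithelium replicate 1 (limma adjusted p = 0.073) or replicate 2 (limma adjusted p = 0.098).

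Gab2, a docking protein downstream of receptor kinases, had 18.95 and 16.49 kb in mesothelium, against 5.16 and 6.34 kb in epithelium (log2 difference 1.61, SE 0.42, limma adjusted p = 0.030). Socs3, an inducible inhibitor of cytokine receptor signalling, had 3.15 and 4.99 kb in mesothelium, against none and 0.397 kb in epithelium (log2 difference 2.80, SE 0.74, limma adjusted p = 0.033). Both epithelium values were under the 0.5 kb filter. Socs3 was therefore tested only through its mesothelium length, which fixed the direction of its difference. Of 17 alternatives, 8 called Gab2 (limma adjusted p up to 0.166) and 4 called Socs3 (up to 0.949). Gab2 lost its call without mesothelium replicate 1, epithelium replicate 1 or epithelium replicate 2 (limma adjusted p = 0.069, 0.166 and 0.0705). Socs3 lost its call without mesothelium replicate 1 or 2 or epithelium replicate 1 (limma adjusted p = 0.069, 0.221 and 0.180). The summed lengths of endothelial and mesenchymal markers were also higher in these mesothelium libraries, and their part in these differences was not tested. Of 4 tested endothelial markers, Kdr and Tek were called longer in mesothelium, and of 3 tested mesenchymal markers, Col3a1 was (limma). Kdr, Tek and Col3a1 had no peak in epithelium, so they were tested only through mesothelium and their direction was fixed. Col3a1 alone held 9.05 and 12.3 kb in mesothelium, most of the mesenchymal sum, while Cdh5 had no peak in mesothelium and 0.378 and 0.835 kb in epithelium. Of the genes that were not called, Src, a tyrosine kinase, had 6.75 and 4.11 kb in mesothelium against 15.4 and 11.4 kb in epithelium (log2 difference −1.19, limma adjusted p = 0.163, and 0.034 without mesothelium replicate 1).

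Genes with the most similar lengths over the 4 libraries were found by Euclidean distance on the scaled log2(kb + 0.5) values for the member with the largest difference in each direction. For Nrg1 they were Prpf38b, Ptges3 and Reep3, at distances of 0.40, 0.43 and 0.45. For Erbb3 they were Faim2, Gnb1l and Sowahb, at distances of 0.28, 0.28 and 0.31. Faim2 had 0.869 kb and none in mesothelium, against 3.41 and 2.29 kb in epithelium. The likeness rests on 4 libraries and says nothing of shared function.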

How the data were processed

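Sorted cells from pooled E16.5 mouse lungs went through H3K27ac CUT&RUN (antibody-guided nuclease cleavage), per the labels' protocols. Tools named include cutadapt 4.8, Bowtie2 2.5.3 and MACS2 2.2.9.1, without roles, per the submitters' processing notes. The assembly named is mm10. How peaks were thresholded, and whether IgG served as control, is not given in the sources used here. Deposited lists hold broad peaks, 1 list per library. The deposited ratio is a peak's fold enrichment over background, and the deposited −log10 p and −log10 q rank peaks within a list; these are the authors' values. The deposited score, 10 times the −log10 q, was not used. A list holds intervals above a minimum, so no peak does not mean no acetylation.

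Peaks off the numbered and sex chromosomes were dropped (1 to 8 per library). Gene positions, start sites and promoter sequences came from RefSeq GRCm38.p6; 5 of 9 members have a promoter window there. R 4.3.3 with limma 3.58.1 fitted log2(kb + 0.5) per domain, after centring each library on its median over domains peaked in all 4 libraries, with a trend, where mean length reached 0.5 kb; a call is an adjusted p under 0.05. The fit and the interval arithmetic were tested on simulated data. Regions merge peaks that overlap by at least 1 bp. Other steps used Python 3.11.15 and pandas 2.3.3. The planned gene-end measure used listed start sites, and both gene ends where none is listed.

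Members, gene lists, tests and alternatives were chosen with earlier results of these data known. Named genes are the 9 members, called pathway genes and those with the smallest p, neighbours, cell type markers and the 3 nearest patterns. A few genes picked by it are not reported here. Alternatives changed the added kb, filter, scaling, domain, peak threshold, peak number, replicate block and libraries; the one with regions of at least 2 libraries was added after seeing the data.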

Additional observations from a re-analysis of the deposited data

How the results depend on the processing

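No ERBB gene was called longer in mesothelium under any of the 17 alternatives. In epithelium the count was 1 (Erbb4) with 1 kb added in place of 0.5 kb, with every domain with a peak tested, with 50 kb flanks not cut and with the replicate number as a block (replicate block, limma adjusted p = 0.046), and 2 (Erbb4 and Tgfa) without mesothelium replicate 1; it was 0 to 2 over the fits that leave out 1 library and 0 in all others. The Nrg1 difference turned to −0.32 without mesothelium replicate 1, and ran from −0.32 to 1.07 over the 4 fits that leave out 1 library; no other tested member changed direction. Same-numbered replicates share only a number, and their deviations correlated at r = 0.029 over 10481 domains. Regions of both mesothelium libraries only numbered 1 with equal numbers of peaks and 2 with peaks within 1 kb merged, against 0, and regions of both epithelium libraries only numbered 1 with a −log10 q of at least 2, against 3. At that threshold no member had a start site or gene end peak in both libraries of a cell type (0 for mesothelium and 0 for epithelium, against 1 each). Over all domains, 148 and 265 calls (longer in mesothelium and in epithelium) became 2 and 2 with 0.1 kb added, 93 and 199 without scaling, 88 and 122 scaled to total length, 96 and 125 after quantile normalization, and 0 and 0 after dropping peaks below a −log10 q of 2 or keeping regions of at least 2 libraries (limma; at an unadjusted p under 0.05, 519 and 441, and 740 and 881). Calls longer in epithelium numbered 458 when mesothelium replicate 1 was left out, 111 when epithelium replicate 1 was and 80 when epithelium replicate 2 was. The cause of these changes was not tested. The median −log10 q of ERBB regions seen in 1 library was 1.53, against lowest listed values of 1.00 to 1.03, and unknown depth limits what an absent peak can show.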
